A study of Mus musculus with 18 samples.

Results

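The nuclear-encoded genes of the respiratory chain were followed in 2 mouse cancer cell lines grown with and without fibroblasts. The genes were chosen by name, as all symbols in both count tables that begin with Nduf, Uqcr or Atp5, together with Sdha, Sdhb, Sdhc and Sdhd, leaving out names marked as pseudogenes and genes under 1 CPM (counts scaled to a common library total) in every library. The rule gave 74 of 24443 symbols shared by the tables and used no measured difference between groups. They were 36 complex I genes, 4 complex II genes, 8 complex III genes, 17 genes with an Atp5 name, 7 complex I assembly factors (Ndufaf) and the pair Ndufa4 and Ndufa4l2. The name rule does not follow function everywhere. Ndufa4 is now counted with complex IV, and Atp5s and Atp5sl encode factors related to assembly rather than ATP synthase subunits. All 74 genes passed the filter on low counts in both lines.

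The breast cancer line 168FARN was cultured with MMTV-CAFs, which are cancer-associated fibroblasts from tumors of MMTV-PyMT mice, and the lung cancer line LLC1 with wound healing fibroblasts collected on day 10 after wounding. Each line had 3 groups of 3 libraries, namely cancer cells alone, cancer cells with WT fibroblasts, which carried a control guide RNA, and cancer cells with sgPrrx1 fibroblasts, in which Prrx1 was deleted by CRISPR/Cas9. All groups were kept as hanging-drop spheroids, cocultures held 3 fibroblasts per cancer cell, and the cancer cells, marked by GFP in every group, were sorted before RNA-seq. The cancer cells carried no deletion of Prrx1, so its level of 87.2 to 130 CPM in 168FARN and 114 to 227 CPM in LLC1 does not check the labels. Line, fibroblast type and count table changed together and cannot be told apart. Nothing in the labels says that replicates were separate cultures, so p-values measure the spread between these libraries, which may be technical.

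The respiratory chain passes electrons from NADH, through complex I, and from succinate, through complex II, to ubiquinone and on through complex III and cytochrome c to complex IV. The proton gradient built by complexes I, III and IV drives ATP synthase, also called complex V. Most subunits are encoded in the nucleus and a few in the mitochondrial genome, and a complex is assembled from both sets. Complex I, III and V each hold a few large catalytic subunits and many small accessory ones, the latter with short transcripts.

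Total counts ran from 48315037 to 68933002 per library in 168FARN and from 66129117 to 103997557 in LLC1. Replicates were tight in 168FARN, with a biological coefficient of variation of 0.0728, and looser in LLC1, at 0.228. The spread in LLC1 came largely from the sgPrrx1 replicate 3 library, without which the coefficient was 0.112. Apart from the 74 genes, transcripts under 1000 bases were a median 0.54 higher on the log2 scale in that library than in cells alone, against -0.01 to 0.00 in its 2 replicates. The LLC1 comparisons are therefore given both with all libraries and without it, and single values say which they are. Mitochondrially encoded subunits were not analysed here.

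In 168FARN, WT fibroblasts went with lower levels of most of these genes, and sgPrrx1 fibroblasts did not. Of the 74 genes, 60 fell and 2 rose from cells alone to WT coculture (edgeR's quasi-likelihood test, adjusted p under 0.05 over all genes), while 30.7% of the 13540 genes tested fell and 33.4% rose. The median log2 fold change was -0.34 over the 74 genes and 0.01 over all genes. With each library corrected for GC content and transcript length, 40 fell and 11 rose, beside 30.9% and 31.0% of all genes in that fit, and the median was -0.12. From WT to sgPrrx1 coculture 58 rose and 6 fell, where 26.9% of all genes rose and 33.1% fell, with medians of 0.38 and -0.03. With that correction 35 rose and 13 fell, beside 27.3% and 28.3% of all genes, with a median of 0.10. Between sgPrrx1 coculture and cells alone 12 were higher and 20 lower, against 25.7% and 24.1% of all genes, and the median was -0.03. Without replicate 3 of each group 3 were higher and 18 lower, against 21.5% and 20.3%. A total of 56 genes both fell from alone to WT and rose from WT to sgPrrx1, as did 19.4% of all genes tested. The WT libraries enter both of those comparisons, so the calls are not independent.

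**Figure D1:**
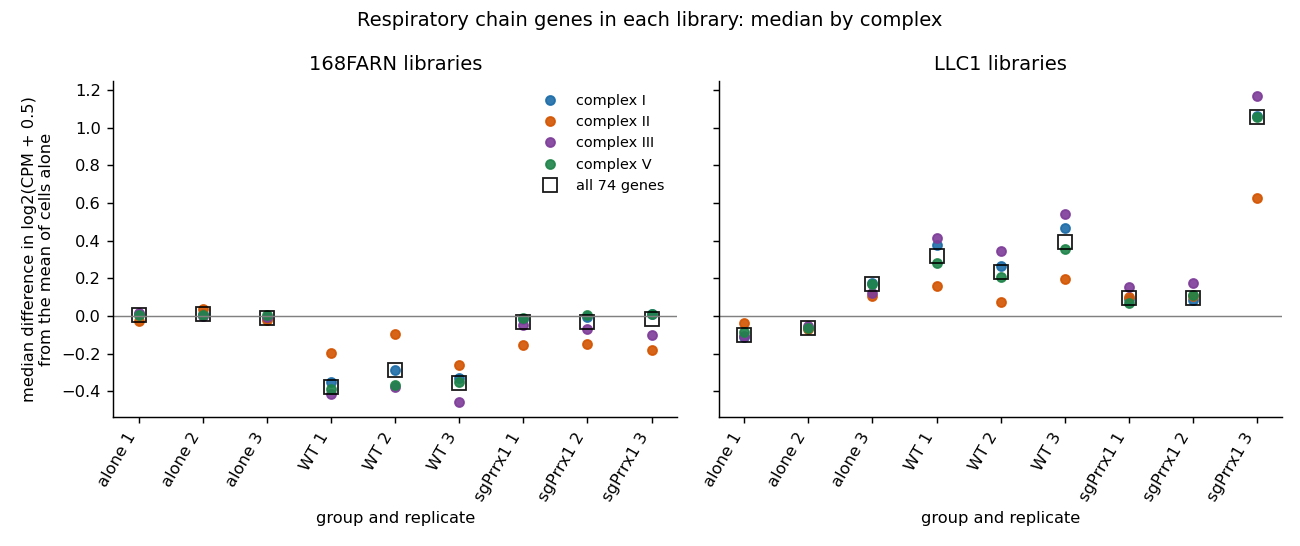
The vertical axis is the median difference in log2(CPM + 0.5) from the mean of cells alone, and each column is 1 library. Colored points are medians over the genes of a complex and open squares medians over all 74 genes, which lie from -0.38 to -0.286 in the 168FARN WT libraries, from -0.034 to -0.018 in 168FARN sgPrrx1, and at 1.056 in LLC1 sgPrrx1 replicate 3.

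All 3 WT libraries of 168FARN showed the lower level. The median over the 74 genes, taken as a difference from the mean of cells alone, was -0.38, -0.286 and -0.355 in the WT libraries and -0.034, -0.034 and -0.018 in the sgPrrx1 libraries. The WT libraries thus lay below all others, and the sgPrrx1 libraries lay close to cells alone. In bulk libraries such as these, fewer cells of a type and less RNA per cell cannot be told apart.

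Complex I takes electrons from NADH. None of its 36 genes rose and 30 fell in 168FARN with WT fibroblasts, and 29 rose and 2 fell from WT to sgPrrx1. The accessory subunits moved further than the catalytic core, with medians of -0.33 over 29 accessory genes and -0.22 over 7 core genes, although the difference between these sets was not tested. Ndufb6, an accessory subunit of the membrane arm, was at 81.2, 78.7 and 78.3 CPM alone, 46.3, 50.7 and 45.1 CPM with WT and 82.1, 77.3 and 80.5 CPM with sgPrrx1 fibroblasts. The WT values did not overlap those of either other group, and the log2 fold changes were -0.74 (SE 0.0441, adjusted p = 9.13e-08 by edgeR) and 0.76 (SE 0.0441, adjusted p = 1.37e-07). Ndufb2, of the same arm, was at 52.4, 50.7 and 51.7 CPM alone, 30.7, 33.4 and 27.5 CPM with WT and 53.7, 48.1 and 52.0 CPM with sgPrrx1 fibroblasts. It fell by 0.75 and rose by 0.74 on the log2 scale, and cells alone and sgPrrx1 coculture overlapped.

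Among the core subunits, Ndufs8, which holds iron-sulfur clusters, was at 122, 120 and 118 CPM alone, 84.3, 86.6 and 85.2 CPM with WT and 110, 115 and 110 CPM with sgPrrx1 fibroblasts. Its change of -0.49 from alone to WT was the largest in the core. Ndufv2 fell by 0.47 in the same comparison, Ndufs7 fell by 0.26 and Ndufs3 fell by 0.18, all past the threshold in edgeR, and Ndufs3 turned to 0.04 with a per-library correction for transcript length and GC content. Ndufs1, the largest core subunit of the complex, was at 191, 197 and 196 CPM alone, 180, 180 and 184 CPM with WT and 170, 170 and 166 CPM with sgPrrx1 fibroblasts. It did not return, and its sgPrrx1 values were the lowest (log2 fold change -0.11 from WT to sgPrrx1, SE 0.0266, edgeR adjusted p = 0.00501). Ndufv1, the subunit that binds NADH, gave -0.09 from alone to WT and did not pass (edgeR adjusted p = 0.074).

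Complex II has 4 subunits, all encoded in the nucleus, and it is the one respiratory complex that is also an enzyme of the TCA cycle. Its members did not move together in 168FARN. Sdhd, a small membrane anchor (chromosome 9, 50596340 to 50603849, GRCm38), was at 309, 323 and 310 CPM alone, 185, 198 and 172 CPM with WT and 288, 289 and 287 CPM with sgPrrx1 fibroblasts. The groups did not overlap, and the change from alone to WT was -0.77 (SE 0.0444, edgeR adjusted p = 7.68e-08). Sdha, the flavoprotein that oxidizes succinate (chromosome 13, 74322255 to 74350240), was at 192, 196 and 188 CPM alone, 209, 206 and 202 CPM with WT and 157, 160 and 156 CPM with sgPrrx1 fibroblasts. It rose by 0.10 (SE 0.0278, edgeR adjusted p = 0.00802) with WT fibroblasts and fell by 0.38 (SE 0.0279, edgeR adjusted p = 6.47e-07) from WT to sgPrrx1, against the direction of most of the 74 genes. The CPM of Sdhd divided by that of Sdha therefore went from 1.61, 1.65 and 1.65 alone to 0.884, 0.960 and 0.849 with WT and 1.84, 1.80 and 1.84 with sgPrrx1 fibroblasts. The other anchor, Sdhc, fell by 0.27 and the iron-sulfur subunit Sdhb fell by 0.10 from alone to WT, and only Sdhb of this pair rose again past the threshold (0.18 from WT to sgPrrx1, edgeR adjusted p = 0.00286). With a per-library correction for transcript length and GC content Sdhb turned to 0.10 from alone to WT and -0.04 from WT to sgPrrx1.

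**Figure D2:**
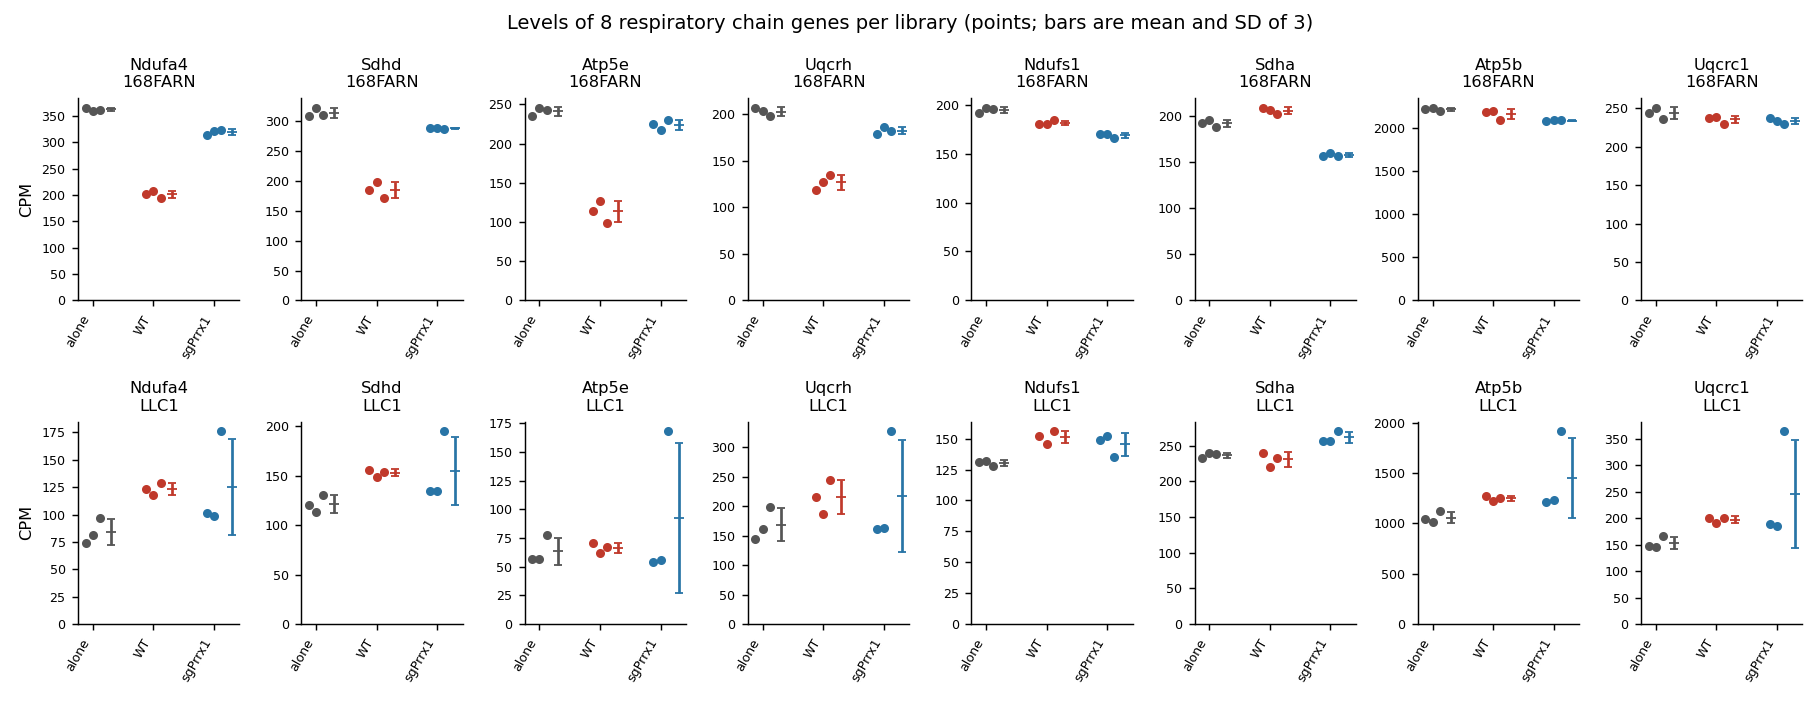
Each panel shows CPM (vertical axis, from 0) of 1 gene in 1 line, with a point per library and the mean and SD of 3 beside them. In 168FARN the WT points of Ndufa4, Sdhd, Atp5e and Uqcrh lie below both other groups, whereas those of Sdha lie above both, and in LLC1 the sgPrrx1 replicate 3 point stands high for all but Ndufs1 and Sdha.

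Complex III hands electrons from ubiquinol to cytochrome c. Of its 8 genes, 7 fell with WT fibroblasts in 168FARN and 7 rose from WT to sgPrrx1. Uqcrh, the hinge protein that contacts cytochrome c1, was at 207, 203 and 198 CPM alone, 119, 127 and 135 CPM with WT and 179, 186 and 182 CPM with sgPrrx1 fibroblasts. The groups did not overlap, and sgPrrx1 lay between the others, with changes of -0.68 (SE 0.0441) from alone to WT and 0.52 (SE 0.0440) from WT to sgPrrx1. Uqcr10, a small accessory subunit, fell by 0.61 and rose by 0.61 in those comparisons. The core protein Uqcrc2 fell by 0.44, and the Rieske iron-sulfur protein Uqcrfs1 fell by 0.40. The exception was Uqcrc1, the partner of Uqcrc2 in the core, at 244, 251 and 236 CPM alone, 238, 239 and 230 CPM with WT and 237, 234 and 229 CPM with sgPrrx1 fibroblasts, where no comparison passed the test. Uqcrq was uneven among replicates, at 286, 210 and 271 CPM in cells alone. Among the 7 genes called lower, its fall was the smallest relative to its error (-0.31, SE 0.119).

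ATP synthase makes ATP in its F1 head, where the catalytic beta subunits and the alpha subunits sit, while its small subunits form the stalk and the membrane part. The Atp5 names cover these subunits. Of 17 Atp5 genes, 13 fell and 1 rose from alone to WT in 168FARN, and 13 rose and 2 fell from WT to sgPrrx1. Atp5e, the epsilon subunit of the central stalk (chromosome 2, 174461075 to 174464101, GRCm38), was at 235, 246 and 243 CPM alone, 114, 127 and 99.2 CPM with WT and 225, 217 and 230 CPM with sgPrrx1 fibroblasts. Its mean went from 241 ± 5.83 (SD, n = 3) to 114 ± 14.1 and back to 224 ± 6.56 CPM, a fall of 1.09 (SE 0.0711, edgeR adjusted p = 2e-07) and a rise of 0.98 (SE 0.0710, edgeR adjusted p = 6.56e-07) on the log2 scale, the largest of the 74 genes in both comparisons. Atp5l, subunit g of the membrane part, was at 249, 238 and 245 CPM alone, 138, 150 and 138 CPM with WT and 234, 237 and 231 CPM with sgPrrx1 fibroblasts. The WT group lay far below the others, with changes of -0.78 (SE 0.0361) and 0.72 (SE 0.0360).

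The beta and alpha subunits did not share this change. Atp5b, the beta subunit, was at 2215, 2235 and 2193 CPM alone, 2189, 2190 and 2091 CPM with WT and 2077, 2089 and 2086 CPM with sgPrrx1 fibroblasts. The change from alone to WT was -0.04 (SE 0.0174, edgeR adjusted p = 0.0784), and sgPrrx1 was the lowest group (-0.09 against cells alone, edgeR adjusted p = 0.00163). Atp5a1, the alpha subunit, gave 0.03 (SE 0.0260, edgeR adjusted p = 0.288) from alone to WT, and no comparison of it passed in 168FARN. The 3 genes for the c subunit of the rotor, which encode the same mature protein, differed among themselves. Atp5g3 fell by 0.46, Atp5g1 fell by 0.43 and Atp5g2 fell by 0.17 with WT fibroblasts, and the last turned to 0.18 with a per-library correction for transcript length and GC content. Atp5d, the delta subunit of the stalk, was the 1 gene of the complex that rose (0.21, SE 0.0316, edgeR adjusted p = 0.000142), and it is named after its value was seen.

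Per kilobase of the longest annotated transcript, Atp5b had the highest level of the 74 genes in cells alone in both lines, at 1160 CPM per kb in 168FARN and 552 CPM per kb in LLC1. Ndufa4l2 had the lowest, at 1.04 and 0.136 CPM per kb.

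Ndufa4 (chromosome 6, 11900372 to 11907450, GRCm38) and its paralog Ndufa4l2, a gene known to be induced in low oxygen, went separate ways. Ndufa4 was at 366, 360 and 362 CPM alone, 201, 208 and 195 CPM with WT and 314, 322 and 323 CPM with sgPrrx1 fibroblasts in 168FARN. The 3 groups did not overlap, with log2 fold changes of -0.85 (SE 0.0283, edgeR adjusted p = 1.08e-09) from alone to WT and 0.67 (SE 0.0282) from WT to sgPrrx1. Ndufa4l2 was near 1 CPM in every 168FARN library. It was at 1.39, 1.52 and 0.771 CPM with WT and 0.688, 0.652 and 0.795 CPM with sgPrrx1 fibroblasts, overlapping groups that nonetheless passed the test (log2 fold change -0.80, edgeR adjusted p = 0.0295).

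The Ndufaf assembly factors, which build complex I without staying in it, followed the subunits. Of 7, 6 fell from alone to WT and 6 rose from WT to sgPrrx1. Ndufaf5, an enzyme that modifies a core subunit, was at 53.1, 56.0 and 52.2 CPM alone, 35.1, 36.4 and 35.4 CPM with WT and 46.5, 49.1 and 48.3 CPM with sgPrrx1 fibroblasts. It fell by 0.59 (SE 0.0341, edgeR adjusted p = 7.19e-08). The exception was Ndufaf7, at -0.05 (edgeR adjusted p = 0.316).

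**Figure D3:**
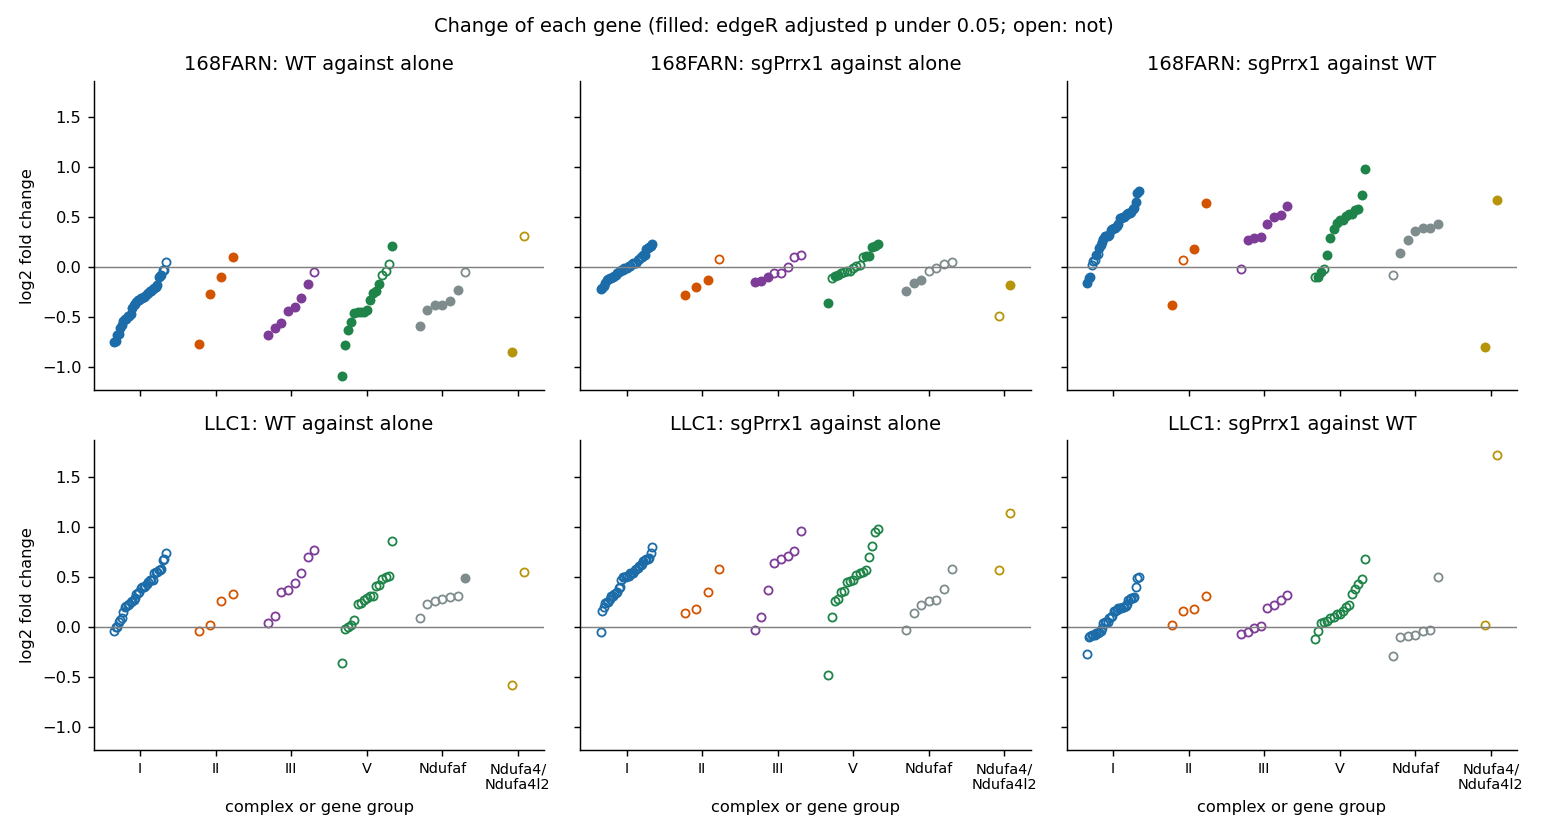
Each point is the log2 fold change (vertical axis) of 1 gene in the comparison named above the panel, sorted by value within complexes I, II, III and V, the Ndufaf factors and the Ndufa4 pair. Filled points passed the edgeR test, as 60 genes below 0 did in the 168FARN panel of WT against alone and a single gene did in the LLC1 panel of the same comparison.

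Cells with sgPrrx1 fibroblasts and cells alone differed in fewer genes. Of complex I, 7 genes were higher and 7 lower with sgPrrx1 fibroblasts, of complex V 5 and 3, and of complexes II and III and the Ndufaf factors 3 each were lower and none higher. Over all genes 25.7% were higher and 24.1% lower, so the counts for complexes I and V lie near the background. Atp5s, an assembly-related factor, was at 7.62, 7.09 and 7.27 CPM alone and 5.61, 5.78 and 5.67 CPM with sgPrrx1 fibroblasts and fell by 0.36 (SE 0.0732, edgeR adjusted p = 0.00177). Sdha fell by 0.28 (SE 0.0279, edgeR adjusted p = 9.79e-06). Ndufc1, an accessory subunit of complex I, was higher by 0.23 (SE 0.0878, edgeR adjusted p = 0.0487), Atp5k was higher by 0.23 (SE 0.0596) and Ndufaf3 gave -0.24 (SE 0.0485).

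Because most of these transcripts are short, the same comparisons were set beside those of other genes of like length, using the median length of a gene's annotated transcripts, which was known for 93.8% of the genes tested in 168FARN. In 168FARN from alone to WT, 46 of the 74 genes had transcripts under 1000 bases, and their median change was -0.36, while 1797 other genes of that length had -0.13. The 28 longer ones had -0.29, against 0.04 over 10835 other genes. From WT to sgPrrx1 the medians were 0.44 against 0.16 for short transcripts and 0.28 against -0.06 for longer ones. Short transcripts in general thus moved in the same direction, by less. When an offset that corrects each library for GC content and transcript length was fitted, 40 of the 74 genes fell and 11 rose from alone to WT, with a median of -0.12, and 35 rose and 13 fell from WT to sgPrrx1, with a median of 0.10. With the median in place of the longest transcript in that offset, an alternative chosen after seeing the data, 41 fell and 4 rose from alone to WT, beside 30.9% and 31.6% of all genes, with a median of -0.15. From WT to sgPrrx1 44 rose and 11 fell, beside 27.3% and 29.4%, with a median of 0.19. The medians kept their direction and were smaller. How far transcript length entered as a property of the RNA or of the libraries was not tested.

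**Figure D4:**
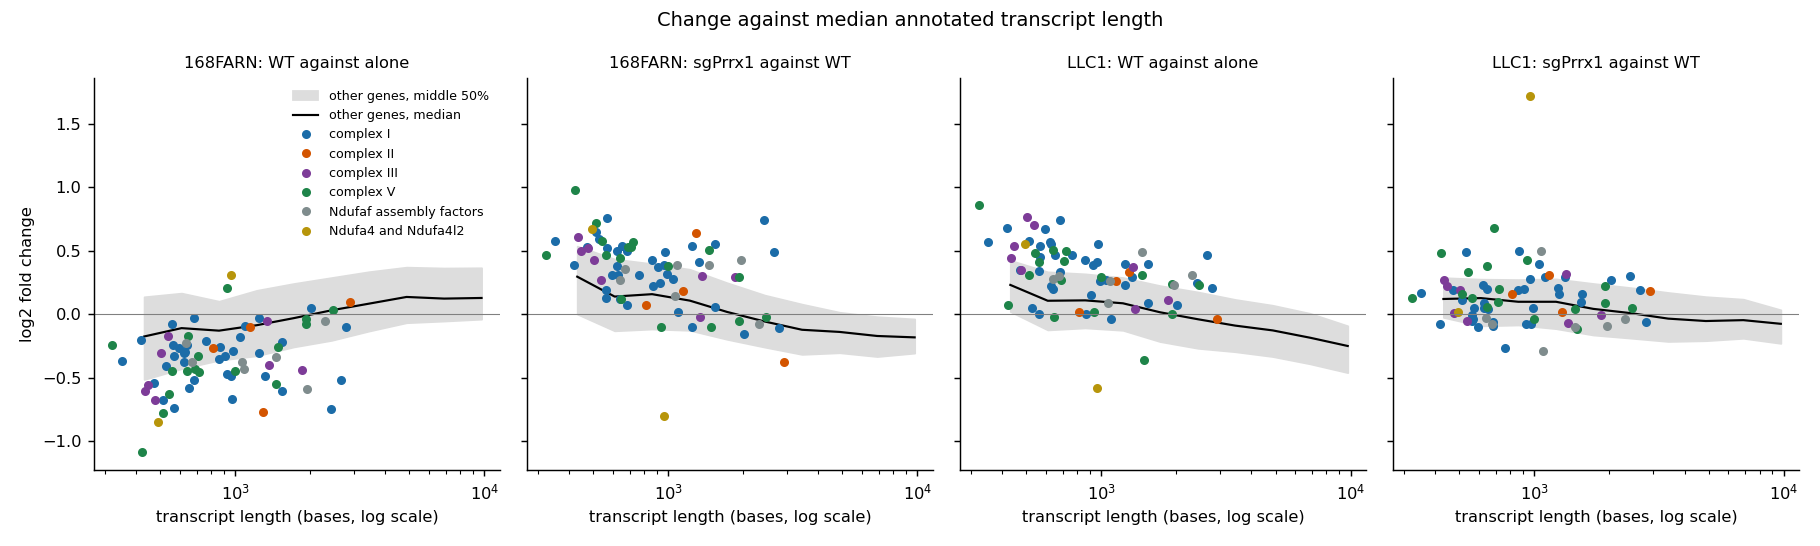
Log2 fold change (vertical axis) is plotted against median annotated transcript length (bases, log scale), with the 74 genes as colored points and the median and middle 50% of all other genes as a line and a band. In 168FARN most points lie under the line from alone to WT and above it from WT to sgPrrx1, and in LLC1 from alone to WT most lie above it.

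The promoters of the genes were searched for 4 short sequences, since members of several complexes moved together. RefSeq promoter windows of GRCm38.p6, from 250 bases before to 50 bases after the start, were found for 63 of the 74 genes, 69 windows in all. The core of the NRF1 site (GCGCATGC, on either strand) was present in 11 of these windows, or 15.9%, and in 2.71% of all 32851 windows. The core of the YY1 site (AAGATGGC) was in 12, or 17.4%, against 2.75% of all windows, and its letters can include the first codon. The E-box (CACGTG) was in 9, or 13.0%, against 7.15%, and an ETS core (CCGGAAGT) was in 4, or 5.80%, against 3.89%. Among the 55 windows of genes that fell in 168FARN with WT fibroblasts, 9 held the NRF1 core, or 16.4%, close to the share over all 69. NRF1 and YY1 are factors known from promoters of mitochondrial genes. A match describes letters and is not a bound site. One window per complex is printed, for a named gene with a match, 5′ to 3′ on the coding strand and with matches in capitals. They are Atp5l at chr9:44920693-44920992 (minus strand, NRF1 core and E-box), Sdhb at chr4:140961021-140961320 (plus strand, NRF1 core), Uqcrc1 at chr9:108936398-108936697 (plus strand, NRF1 core on both strands, overlapping) and Ndufc1 at chr3:51408906-51409205 (minus strand, YY1 core).
Atp5l: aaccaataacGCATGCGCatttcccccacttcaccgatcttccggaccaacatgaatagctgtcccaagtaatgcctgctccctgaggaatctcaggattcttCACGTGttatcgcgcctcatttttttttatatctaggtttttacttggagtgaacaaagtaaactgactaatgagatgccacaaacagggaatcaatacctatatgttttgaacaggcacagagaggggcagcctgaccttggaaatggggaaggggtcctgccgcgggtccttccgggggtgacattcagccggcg
Sdhb: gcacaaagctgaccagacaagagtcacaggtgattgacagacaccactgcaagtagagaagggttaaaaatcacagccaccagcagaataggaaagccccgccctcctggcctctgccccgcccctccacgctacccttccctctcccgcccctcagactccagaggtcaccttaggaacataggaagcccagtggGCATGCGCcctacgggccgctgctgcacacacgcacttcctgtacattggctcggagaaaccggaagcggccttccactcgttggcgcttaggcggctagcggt
Uqcrc1: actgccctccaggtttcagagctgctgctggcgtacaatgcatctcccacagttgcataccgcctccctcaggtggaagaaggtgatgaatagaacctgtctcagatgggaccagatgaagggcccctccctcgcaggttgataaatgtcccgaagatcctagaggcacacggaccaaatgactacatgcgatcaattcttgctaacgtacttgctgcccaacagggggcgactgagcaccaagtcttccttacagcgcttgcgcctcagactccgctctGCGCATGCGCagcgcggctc
Ndufc1: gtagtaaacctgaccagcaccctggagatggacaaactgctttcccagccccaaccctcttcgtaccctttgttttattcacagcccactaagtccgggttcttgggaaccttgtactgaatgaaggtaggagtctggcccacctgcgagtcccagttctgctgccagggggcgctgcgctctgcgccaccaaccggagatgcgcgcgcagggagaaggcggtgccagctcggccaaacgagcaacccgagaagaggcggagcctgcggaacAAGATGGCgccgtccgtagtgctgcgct
Of these 4 genes, Atp5l fell by 0.78 and Ndufc1 fell by 0.31 from alone to WT in 168FARN, Sdhb fell by 0.10, and Uqcrc1 did not pass the test (-0.05).

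In LLC1 the genes did not fall with WT fibroblasts. Of the 74, 1 rose and none fell from alone to WT in the edgeR test, beside 4.25% of the 12873 genes tested that rose and 4.58% that fell, and the median log2 fold change was 0.31 over the 74 and -0.02 over all genes. The gene that passed was Ndufaf1, at 13.2, 12.4 and 15.1 CPM alone and 19.6, 17.5 and 20.0 CPM with WT fibroblasts (log2 fold change 0.49, SE 0.117, edgeR adjusted p = 0.0385). None passed between sgPrrx1 coculture and cells alone, where 2.01% of all genes rose and 2.31% fell, or between sgPrrx1 and WT, where 0% rose and 0.0544% fell. The medians in these comparisons were 0.50 and 0.12. At an unadjusted p under 0.05, 13 of the 74 genes differed between WT and alone, 20 between sgPrrx1 and alone and 2 between sgPrrx1 and WT, and DESeq2 called 9, 8 and 0 at an adjusted p under 0.05, all with the 9 libraries in the fit. Of all genes, 24.2%, 23.7% and 12.0% did so at the unadjusted p and 17.7%, 15.1% and 3.89% by DESeq2, so the DESeq2 counts lie below the background.

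These counts rest on the sgPrrx1 replicate 3 library. It held the highest of the 3 sgPrrx1 values for 73 of the 74 genes, and the median over the 74 genes was 1.056 above cells alone in it, against 0.093 in both its replicates. Atp5e was at 54.3, 55.8 and 168 CPM in the sgPrrx1 libraries, and the core subunit Ndufs7 at 37.8, 36.3 and 104 CPM. The long Ndufs1 was at 149, 152 and 135 CPM and so was not raised there. Cells alone were also uneven, since alone replicate 3 held the highest value of its group for 70 of the 74 genes.

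Without the sgPrrx1 replicate 3 library, 49 of the 74 genes rose and 1 fell from alone to WT in LLC1, where 22.0% of 13088 genes rose and 22.2% fell, and the median was 0.32. By complex, 25 of 36 rose in complex I, 2 of 4 in complex II, 6 of 8 in complex III and 11 of 17 in complex V, and 4 of 7 assembly factors did. Between sgPrrx1 and alone 7 rose and 1 fell, against 12.5% and 14.2% of all genes, with a median of 0.10. Between sgPrrx1 and WT none rose and 4 fell, against 2.94% and 2.75% of all genes, with a median of -0.27. The 4 were Uqcrq, Ndufb3, Ndufaf6 and Ndufaf7. The WT libraries thus lay highest, as they lay lowest in 168FARN, but only 2 sgPrrx1 libraries remain and few genes passed in that last comparison. Its count depended on the fit. Without replicate 3 of every group 0 were higher and 41 lower, and limma voom with quality weights on all libraries gave 1 higher and 53 lower. The shares of all genes in those fits were not counted.

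Named genes in LLC1 show both the size and the spread of these values. Atp5k, subunit e of ATP synthase, was at 16.7, 21.0 and 27.1 CPM alone, 39.3, 35.1 and 43.2 CPM with WT and 32.9, 29.4 and 66.1 CPM with sgPrrx1 fibroblasts. The WT libraries lay above all cells alone, and the change of 0.86 (SE 0.313) passed without the sgPrrx1 replicate 3 library (0.87, edgeR adjusted p = 0.00315) and not with it (edgeR adjusted p = 0.133). Uqcrq, an accessory subunit of complex III, was at 42.7, 34.8 and 42.5 CPM alone, 75.7, 66.9 and 62.3 CPM with WT and 46.1, 47.2 and 141 CPM with sgPrrx1 fibroblasts. Without that library it rose by 0.78 from alone to WT (edgeR adjusted p = 0.000524) and fell by 0.56 from WT to sgPrrx1 (edgeR adjusted p = 0.0373). Ndufa12, an accessory subunit of complex I, was at 42.6, 48.5 and 54.7 CPM alone and 76.4, 71.4 and 95.7 CPM with WT fibroblasts, groups that did not overlap.

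Long subunits in LLC1 were steadier. Ndufs1 was at 131, 132 and 128 CPM alone and 152, 146 and 156 CPM with WT fibroblasts, and its rise of 0.23 passed without the sgPrrx1 replicate 3 library (edgeR adjusted p = 0.00394). Atp5b, at 1044, 1009 and 1118 CPM alone and 1272, 1221 and 1249 CPM with WT, rose by 0.25 (edgeR adjusted p = 0.00429), and Atp5a1 rose by 0.24 (edgeR adjusted p = 0.00267), both without that library. Sdha was at 232, 239 and 238 CPM alone, 240, 220 and 232 CPM with WT and 257, 257 and 270 CPM with sgPrrx1 fibroblasts and passed in no comparison with or without it, while Sdhd rose by 0.35 from alone to WT without it (edgeR adjusted p = 0.00304). The gene that fell from alone to WT was Atp5s (-0.35, edgeR adjusted p = 0.016), at 15.1, 14.8 and 16.3 CPM alone and 10.5, 11.7 and 13.7 CPM with WT fibroblasts. Ndufa4l2 was under 1 CPM in all LLC1 libraries.

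The length offset was also fitted in LLC1. With all 9 libraries, 23 of the 74 genes rose and 2 fell from alone to WT, beside 11.8% and 13.3% of all genes in that fit, with a median of 0.18. None passed between sgPrrx1 and WT, where 0.0932% of all genes rose and 0.132% fell, with a median of 0.00. Other genes with transcripts under 1000 bases had a median change of 0.12 from alone to WT in LLC1, and longer ones -0.05, while the 46 short and 28 longer respiratory chain genes had 0.42 and 0.24. Without the sgPrrx1 replicate 3 library the medians were 0.13 and -0.03 for the other genes and 0.43 and 0.25 for the respiratory chain genes. The genes of both length classes thus lay above the others of their class, in the direction opposite to 168FARN.

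The difference between the lines was tested as an interaction, the LLC1 change minus the 168FARN change. For WT against alone, 38 of the 74 genes had a higher change in LLC1 and none a lower one, where 13.7% and 15.8% of 14365 genes did. Leaving out replicate 1 of every group lowered these counts to 4 and 0, against 3.82% and 6.27% of all genes, and leaving out replicate 2 to 6 and 0, against 5.01% and 7.02%. Without the sgPrrx1 replicate 3 library the counts were 64 and 0, against 26.5% and 26.0% of 14640 genes. For Ndufa4 the difference was 1.40 (SE 0.225, edgeR adjusted p = 0.000251), from -0.85 in 168FARN and 0.55 in LLC1, and for Sdhd it was 1.10 (SE 0.152, edgeR adjusted p = 6.54e-05), from -0.77 and 0.33. For Atp5b it was 0.28 and did not pass (edgeR adjusted p = 0.237). For sgPrrx1 against alone, 3 genes, Ndufa4, Sdha and Ndufs1, had a higher change in LLC1 and none a lower one, against 5.44% and 6.68% of all genes. Without the library 9 were higher and 2 lower, against 14.2% and 13.8%. For sgPrrx1 against WT, 2 were higher and 7 lower, against 11.0% and 8.25% of all genes, and without the library 2 were higher and 59 lower, against 22.8% and 21.7%. The 2 higher ones in the fit of all libraries were Sdha (0.55, edgeR adjusted p = 7.01e-05) and Ndufa4l2 (2.48, edgeR adjusted p = 0.0106).

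Other genes that work with these complexes were counted from lists. Of 13 complex IV genes tested in 168FARN, 9 fell and 1 rose from alone to WT, with a median of -0.27, and 9 rose and none fell from WT to sgPrrx1. Cox4i1, a regulatory subunit of complex IV, was at 497, 519 and 485 CPM alone, 353, 371 and 334 CPM with WT and 528, 539 and 528 CPM with sgPrrx1 fibroblasts (log2 fold changes -0.50 and 0.59). Of 20 assembly factors with other names, 15 fell and 2 rose from alone to WT, with a median of -0.24. Of 78 mitochondrial ribosomal protein genes, 60 fell and 3 rose, with a median of -0.27, and 70 rose and 3 fell from WT to sgPrrx1. Of 82 cytosolic ribosomal protein genes, which are also short, 44 fell and 14 rose from alone to WT, with a median of -0.13. The 13 TCA cycle enzymes gave 6 that fell and 1 that rose, with a median of -0.11, and 4 that rose and 6 that fell from WT to sgPrrx1. Of all genes, 33.4% rose and 30.7% fell from alone to WT and 26.9% rose and 33.1% fell from WT to sgPrrx1, and the TCA cycle counts from WT to sgPrrx1 lie near these shares.

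Cytochrome c itself differed from its partners. Cycs was at 250, 267 and 256 CPM alone, 263, 288 and 261 CPM with WT and 360, 359 and 356 CPM with sgPrrx1 fibroblasts in 168FARN, so only the sgPrrx1 group stood apart (0.48 against alone, edgeR adjusted p = 2.4e-06). Cyc1, cytochrome c1 of complex III, fell by 0.36 and then rose by 0.22. In LLC1 Cycs was at 88.2, 88.1 and 101 CPM alone, 168, 160 and 193 CPM with WT and 142, 145 and 223 CPM with sgPrrx1 fibroblasts, a rise of 0.91 with WT that passed with all libraries in the fit (edgeR adjusted p = 0.0203) and without sgPrrx1 replicate 3 (0.92, edgeR adjusted p = 0.000127). Among regulators of mitochondrial genes, Esrra fell by 0.24 in 168FARN with WT fibroblasts (edgeR adjusted p = 2.2e-05) and rose by 0.29 from WT to sgPrrx1, Ppargc1b rose by 0.22 with WT (edgeR adjusted p = 0.0139), and Ppargc1a was under 1 CPM in all libraries. Myc was at 141, 109 and 134 CPM alone and 237, 284 and 321 CPM with WT fibroblasts in 168FARN, and at 905, 943 and 957 CPM alone and 547, 523 and 575 CPM with WT in LLC1, rising in the first line (1.13, edgeR adjusted p = 1.27e-05) and falling in the second (-0.77, edgeR adjusted p = 0.00411, and -0.76, edgeR adjusted p = 2.57e-05, without sgPrrx1 replicate 3). Over 12 regulators tested in 168FARN, 5 rose and 5 fell from alone to WT, near the 33.4% and 30.7% of all genes.

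Slc25a4, the heart and muscle form of the carrier that exchanges ADP for ATP, had 0 counts in the 3 libraries of 168FARN alone, which allows up to 0.0186 CPM over the group by 3 counts. It was at 17.0, 16.6 and 14.6 CPM with WT and 4.23, 5.43 and 4.62 CPM with sgPrrx1 fibroblasts, at least 867-fold and at least 257-fold higher. The fibroblast markers Fbln1 and Postn were also at 0 in cells alone. Their means were 10.6 and 22.1 CPM with WT and 0.734 and 0.0223 CPM with sgPrrx1 fibroblasts. The part of fibroblast RNA in the Slc25a4 values was not tested. In LLC1 Slc25a4 was at 309, 291 and 335 CPM alone. Slc25a5, the widely expressed form, was at 409, 427 and 410 CPM alone, 338, 364 and 316 CPM with WT and 468, 469 and 456 CPM with sgPrrx1 fibroblasts in 168FARN.

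Fibroblast genes moved with the groups too, in both directions. Of the 12 markers tested in 168FARN, 10 rose and 1 fell from alone to WT, beside 33.4% and 30.7% of all genes, and 1 rose and 11 fell from WT to sgPrrx1, beside 26.9% and 33.1%. Of 14 fibroblast markers, 8 were under 1 CPM in all libraries of 168FARN alone, 3 with WT and 6 with sgPrrx1 fibroblasts, and Postn, Thy1 and Fbln1 were at 0 in cells alone. Col1a2, a collagen chain, was at 0.103, 0.125 and 0.0824 CPM alone, 153, 152 and 139 CPM with WT and 14.5, 11.4 and 12.6 CPM with sgPrrx1 fibroblasts. S100a4 went the other way, at 1050, 1170 and 1060 CPM alone, 441, 460 and 413 CPM with WT and 846, 884 and 845 CPM with sgPrrx1 fibroblasts. The summed level of the 14 was 1210 to 1330 CPM alone, 1390 to 1510 CPM with WT and 1110 to 1160 CPM with sgPrrx1 fibroblasts. In LLC1, Col1a2 was at most 0.0642 CPM alone and at 9.27, 8.55 and 8.22 CPM with WT fibroblasts. Col3a1, another collagen, was at 1620, 1560 and 1560 CPM alone and lower with WT fibroblasts, at 1090, 1080 and 1060 CPM. Of 10 markers tested with all LLC1 libraries, 3 rose and 3 fell from alone to WT, beside 4.25% and 4.58% of all genes, and the summed level was 2270 to 2370 CPM alone, 2020 to 2140 CPM with WT and 2330 to 2730 CPM with sgPrrx1. The part of fibroblast RNA in the changes of the respiratory chain genes was not tested. Of 9 epithelial markers, 8 were under 1 CPM in all libraries of 168FARN alone, with a summed level of 323 to 345 CPM, and all 9 were in LLC1 alone, where the sum was 0.295 to 0.786 CPM, so the epithelial origin of LLC1 is not seen in these markers. The 168FARN sum, nearly all of it Krt8, was 360 to 389 CPM with WT and 417 to 423 CPM with sgPrrx1 fibroblasts. Of 5 immune markers, summing to 47.6 to 51.7 CPM alone, 29.0 to 31.7 CPM with WT and 35.0 to 36.0 CPM with sgPrrx1 fibroblasts in 168FARN, Ptprc and Adgre1 were at 0 in cells alone of both lines. In LLC1 the immune sum was 16.0 to 17.3 CPM alone, 36.5 to 38.3 CPM with WT and 36.5 to 64.9 CPM with sgPrrx1 fibroblasts. The sum of 4 endothelial markers was 0.535 to 0.658 CPM alone, 5.71 to 6.74 CPM with WT and 4.08 to 4.64 CPM with sgPrrx1 fibroblasts in 168FARN. In LLC1 it was 0.025 to 0.103 CPM alone, 5.57 to 6.67 CPM with WT and 0.103 to 0.352 CPM with sgPrrx1 fibroblasts. A single gene carried most of the WT sum in each line, Cdh5 in 168FARN (mean 0.277 CPM alone and 5.94 CPM with WT) and Kdr in LLC1 (mean 0.0123 CPM alone and 6.04 CPM with WT), so the endothelial markers did not rise together. The part of the immune and endothelial markers in the changes of the respiratory chain genes was not tested.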

How the data were processed

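RNA-seq of sorted cancer cells was analysed in 18 libraries, 9 of each line. The authors deposited raw read counts per gene symbol, 1 table per line. The submitters' processing notes name Trimmomatic, STAR, HTSeq and the build mm10. From these counts, genes were filtered with filterByExpr, scaled by TMM and tested with edgeR 4.0.16 (quasi-likelihood, R 4.3.3), with the 3 groups of a line in 1 model, two-sided, with Benjamini-Hochberg adjustment over all genes tested and a threshold of 0.05. The difference between lines was the interaction term in a fit of all 18 libraries. CPM used TMM-scaled totals. Transcript lengths came from GENCODE vM1 instead of RefSeq. The tests were checked on simulated data, for LLC1 with a spread near that seen without its sgPrrx1 replicate 3 library. That check does not cover the larger spread of the LLC1 fit with all 9 libraries.

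The genes and lists were chosen with earlier results of these data known. Genes named with values were the complex II subunits, the complex I core, Uqcrc1, Uqcrc2, Uqcrfs1, the alpha, beta and c subunits of ATP synthase, Ndufa4 and Ndufa4l2. To these the rule added, per line and comparison, the 2 genes with the largest change in complexes I, III and V and the Ndufaf factors. The added genes were taken among those with a mean of at least 100 counts. Not every gene that this rule names is reported here. Alternatives were DESeq2 1.42.0, limma 3.58.1 voom with quality weights, RLE and library-total scaling, other count filters, a replicate block, each replicate left out, only the groups compared, and a length and GC offset. The offset on median transcripts and the offset without the LLC1 sgPrrx1 replicate 3 library were added after seeing the data. Between LLC1 alone and sgPrrx1, the deviations of same-numbered libraries from their group means correlated by 0.131, 0.249 and 0.419 over genes. Differently numbered ones reached 0.182 (alone 1 with sgPrrx1 2) and 0.232 (alone 2 with sgPrrx1 1). No pairing of replicates 1 and 2 by number is therefore shown, and the labels state none. Total counts ran from 48315037 to 103997557 per library, and how depth limits the calls was not tested.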

Additional observations from a re-analysis of the deposited data

Results flagged for a closer look

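The change with coculture differed between the lines, tested as an interaction by edgeR over all genes, for 38 of the 74 respiratory chain genes in WT against alone, for 3 in sgPrrx1 against alone and for 9 in sgPrrx1 against WT. The shares of all genes, higher and lower, were 13.7% and 15.8%, 5.44% and 6.68%, and 11.0% and 8.25%, so in this fit the counts of 3 and 9 lie below the background. Without the LLC1 sgPrrx1 replicate 3 library, WT against alone gave 64 higher and 0 lower, beside 26.5% and 26.0% of all genes. There, sgPrrx1 against alone gave 9 higher and 2 lower (14.2% and 13.8%), and sgPrrx1 against WT 2 higher and 59 lower (22.8% and 21.7%). Without replicate 1 or replicate 2 of every group the 38 became 4 and 6. Among the named genes, the LLC1 change minus the 168FARN change in WT against alone was 1.10 for Sdhd, 0.32 for Ndufs1, 0.87 for Ndufv2, 0.55 for Uqcrc2, 0.44 for Uqcrfs1, 0.96 for Atp5g3 and 1.40 for Ndufa4. Each of the 7 was lower with WT fibroblasts in 168FARN. Line, fibroblast type and count table cannot be told apart in these differences.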

How the results depend on the processing

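In 168FARN, the sum of genes called in both directions for WT against alone and for sgPrrx1 against WT stayed within 1.5 times of that reported under every alternative run. The split moved with the length and GC offset, from 2 higher and 60 lower to 11 and 40 in WT against alone and from 58 higher and 6 lower to 35 and 13 in sgPrrx1 against WT, and on median transcripts to 4 and 41 and to 44 and 11. For sgPrrx1 against alone, with 12 higher and 20 lower reported, leaving out 1 replicate number gave 21 to 24 genes, the lowest without replicate 3, with 3 higher and 18 lower. Library totals gave 7 higher and 24 lower, and the length and GC offset 7 and 25. The median there was -0.02 with DESeq2's or RLE scaling, -0.05 with library totals, -0.05 with the length and GC offset and -0.04 without replicate 3. For sgPrrx1 against WT the median was 0.33 with library totals, 0.10 with the offset and 0.19 with the offset on median transcripts, and for WT against alone -0.12 and -0.15 with these offsets.

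LLC1 counts depended on the fit. The share of all genes called was not counted for most of these alternatives, voom and the compared groups among them, here and between the lines. Such counts have no background beside them. For WT against alone, with 1 gene reported, DESeq2 gave 9, library totals 4, a minimum of 1 count 0, the replicate block 4, a fit of the compared groups only 48, limma voom with quality weights 62 and the length and GC offset 25 (median 0.18). Median transcripts in the offset gave 16, the fit without the sgPrrx1 replicate 3 library 50, and the offset without it 44 (median 0.19). For sgPrrx1 against alone, with 0 reported, the counts were 8 with DESeq2, 1 with library totals, 36 with voom, 16 and 10 with the offsets, 8 without that library and 25 with the offset without it. For sgPrrx1 against WT, with 0 reported, they were 54 with voom (1 higher and 53 lower), 4 without the library (0 and 4) and 11 with the offset without it (1 and 10). Leaving out 1 replicate number in turn gave 0 to 60, 0 to 43 and 0 to 41. The 41 came without replicate 3 and were all lower.

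For the difference between lines in WT against alone, voom gave 66 and the fit without the library 64. In sgPrrx1 against alone DESeq2 gave 8, library totals 6, the replicate block 11, voom 40, the offsets 19 and 17, the fit without the library 11 and the offset without it 25. In sgPrrx1 against WT library totals gave 15, the replicate block 22, voom 64, the offsets 26 and 25, the fit without the library 61 and the offset without it 52. Leaving out 1 replicate number gave 4 to 67, 0 to 37 and 1 to 59. The replicate block moved no other count of calls by over 1.5 times. Same-numbered libraries correlated in all 3 pairs by over 0.1 only between LLC1 alone and sgPrrx1. There, replicates 1 and 2 correlated across numbers as well (0.182 and 0.232).

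Single genes changed sign. In 168FARN from alone to WT the offset gave Sdhb 0.10, Ndufs3 0.04, Atp5b 0.05, Atp5g2 0.18, Atp5s 0.08 and Atp5k 0.30, and on median transcripts Sdhb 0.03, Atp5g2 0.07 and Atp5k 0.11. From WT to sgPrrx1 it gave Sdhb -0.04, Ndufv2 -0.02, Atp5g2 -0.24, Atp5k -0.04 and Ndufaf3 -0.03, and on median transcripts Sdhc -0.16, Ndufv1 -0.10, Ndufv2 -0.03 and Atp5g2 -0.09. In LLC1 the offset gave Atp5g2 -0.15 in sgPrrx1 against alone, and without the library Atp5g2 -0.16, Ndufs7 -0.13 and Atp5e -0.23, and Uqcrfs1 -0.13 in WT against alone. In LLC1 sgPrrx1 against WT, voom gave Sdhb -0.19, Sdhd -0.19, Ndufs7 -0.18, Ndufs8 -0.29, Ndufa4 -0.29, Uqcr10 -0.28, Atp5e -0.30, Atp5k -0.32, Uqcrq -0.62, Atp5h -0.40, Ndufb7 -0.31, Ndufa3 -0.40 and Uqcr11 -0.38. Leaving out 1 replicate number gave ranges of -0.19 to 0.10 for Sdhd, -0.25 to 0.45 for Ndufs8, -0.28 to 0.13 for Ndufa4, -0.26 to 0.45 for Uqcr10, -0.27 to 0.77 for Atp5e, -0.62 to 0.51 for Uqcrq, -0.32 to 0.22 for Atp5h, -0.25 to 0.44 for Ndufb7 and -0.33 to 0.44 for Uqcr11, each lowest without replicate 3. Without the sgPrrx1 replicate 3 library Uqcrq was -0.56, and -0.43 with the offset. The cause was not tested.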
